A study of Mus musculus with 13 samples.

Results

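Barcodes of the developing mouse heart that carried Sox9 and collagen transcripts but no Tcf21 transcript were taken from single-cell RNA sequencing of whole hearts. A barcode was kept when it had at least 2000 UMIs (unique molecular identifiers, each standing for 1 captured transcript) and 500 genes, less than 1000 CPM (counts scaled to a common total of UMIs per barcode or sum) of Tnnt2, at most 1 UMI of Pecam1 and Cdh5 together, at least 10 UMIs of Col1a1, Col1a2 and Col3a1 together, at least 2 UMIs of Postn and Cthrc1 together, at least 1 UMI of Sox9 and no UMI of Tcf21. This left 1941 of 41586 heart barcodes over the UMI and gene limits, or 29.1% of the 6681 collagen-positive barcodes that passed the Tnnt2, Pecam1 and Cdh5 limits. They are called Sox9 members below, and they were compared with the 3331 collagen-positive barcodes that had at least 1 Tcf21 UMI. The genes of the gate chose the members, so their values are given as a description with no test.

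The study profiled hearts of wild-type C57Bl/6J mice with a droplet assay that counts transcript ends. Embryonic hearts came from days E12.5, from E14.5 and from E16.5 with 2 libraries each, newborn hearts came from postnatal day 3 (P3) as 1 matrix, and no group carried an allele or a treatment. Replicate 1 of E16.5 pools 2 sample records in 1 matrix, and the P3 matrix pools 2 wells that no label ties to a sample, so P3 enters no test. The labels name trypsin for dissociation and the study's methods name collagenase II, and the labels do not say whether replicates came from separate litters, so p-values measure the spread between these libraries only.

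Cushion mesenchyme arises when endocardial cells of the atrioventricular canal and outflow tract leave the endothelial layer and invade a hyaluronan-rich jelly, and it is later remodelled into valve leaflets and septa. Sox9, a transcription factor of cartilage precursors, is needed for its expansion and matrix. Tcf21 marks epicardium-derived fibroblasts, and Postn and Cthrc1 encode secreted matrix proteins that valve mesenchyme and fibroblasts share.

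The E12.5 libraries held 372 and 511 Sox9 members, the E14.5 libraries 332 and 264, the E16.5 libraries 152 and 139, and the P3 matrix 171. Their share of collagen-positive barcodes was 39.8% (exact 95% Clopper-Pearson interval 36.6 to 43.0) and 40.5% (37.8 to 43.3) at E12.5. The E14.5 libraries had 45.0% (41.4 to 48.7) and 40.7% (36.9 to 44.6), the E16.5 libraries 20.9% (18 to 24.0) and 23.4% (20.1 to 27.0), and the P3 matrix 9.63% (8.30 to 11.1). The intervals cover counting error only, and the 4 libraries of E12.5 and E14.5 lie above those of E16.5, which lie above P3. No test of the shares was run. When each barcode was first thinned to 4000 UMIs and gated anew, E12.5 had 23.9% and 26.0%, E14.5 had 32.9% and 29.4%, E16.5 had 25% and 23.9%, and P3 had 13.1%. The 10 collagen UMIs were still required after thinning, so the collagen-positive barcodes fell from 935 and 1261 to 142 and 273 at E12.5 and from 729 and 594 to 612 and 461 at E16.5, and the thinned shares are of different sets of barcodes. Thinning also removes Tcf21 UMIs, so a barcode with Tcf21 at full depth can pass as a member. In E16.5 replicate 1 Tcf21-positive barcodes fell from 425 to 174, while members went from 152 to 153. At P3 they fell from 1372 to 1034, while members rose from 171 to 208. In the thinned shares the E12.5 and E16.5 values overlapped and P3 was again the lowest, but thinned members are not the same set of barcodes. Both the full and the thinned shares by library are plotted.

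**Figure D1:**
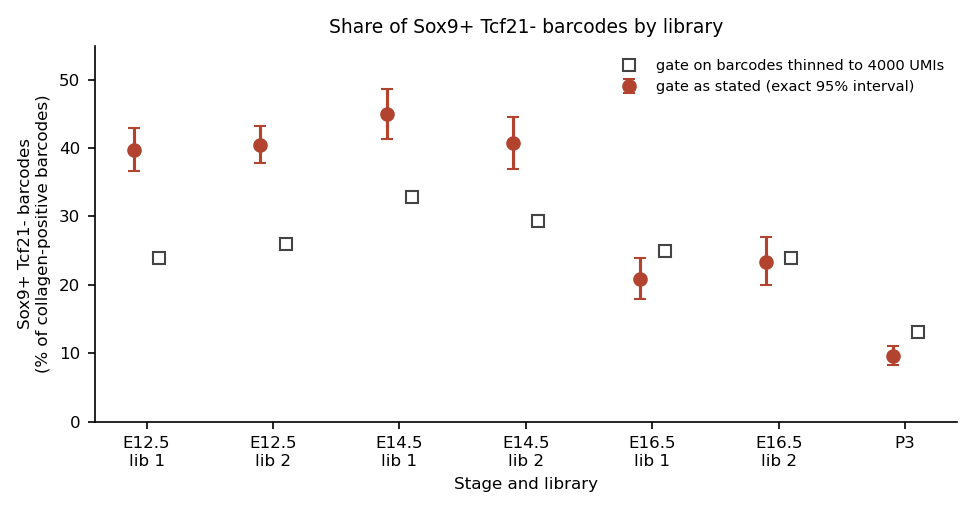
Share of collagen-positive barcodes that were Sox9 members, in percent, in each of the 7 matrices; filled points are the share at full depth with exact 95% intervals, and open squares are the share after thinning each barcode to 4000 UMIs. Full-depth shares run from 9.63% at P3 to 45.0% in E14.5 replicate 1, and after thinning the E12.5 and E16.5 shares lie between 23.9% and 26.0%.

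The gate at 1 Sox9 UMI is a low bar. A single Sox9 UMI was all that 13.7% and 15.5% of E12.5 members had, 12.7% and 20.1% of E14.5 members, 27.6% and 41.0% of E16.5 members and 47.4% of P3 members, and the median member held 5 Sox9 UMIs in both E12.5 libraries, 4 in both E14.5 libraries, 3 and 2 in those of E16.5, and 2 for P3. Between 1 and 16 members a library had exactly 2 Postn and Cthrc1 UMIs, the lowest number allowed, and 3 to 55 barcodes a library had Sox9 and no Tcf21 but fell below that limit. Sox9 was not absent from the Tcf21-positive barcodes, of which 64.7% to 76.7% had a Sox9 UMI at median depths of 10938 to 18588 UMIs. At E12.5, 199 of 373 and 233 of 468 Tcf21-positive barcodes met every member limit except the lack of Tcf21. The counts were 110 of 186 and 105 of 190 at E14.5. E16.5 had 323 of 425 and 226 of 317, and P3 had 932 of 1372. Much of the comparison group thus differs from members by the Tcf21 limit alone. In cardiomyocyte barcodes, which should lack Sox9, 0.409% to 2.70% had a Sox9 UMI at median depths of 12509 to 19370 UMIs. After each barcode was thinned to 2000 UMIs, 40.4% to 55.7% of members, 24.2% to 30% of Tcf21-positive barcodes and 0.083% to 0.521% of cardiomyocyte barcodes had one. Sox9 stood at 334, 376, 432, 428, 284, 292 and 252 CPM in the summed members of E12.5 replicates 1 and 2, E14.5 replicates 1 and 2, E16.5 replicates 1 and 2, and P3, and at 172 to 215 CPM in Tcf21-positive barcodes. All lists of values below follow this library order, with the 6 embryonic libraries first.

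Members had a median of 9012 to 17997 UMIs a library against 10938 to 18588 in Tcf21-positive barcodes. The member median was the lower in every matrix, by the most in E16.5 replicate 2 (9012 against 13216 UMIs). A barcode with fewer UMIs can more easily lack a Tcf21 UMI, and the part of depth in the population differences was not tested. The summed UMIs of members ran from 1413110 in E16.5 replicate 2 to 9101111 in E12.5 replicate 2. From 1 to 10 members a library were marked as likely doublets, and any pair of libraries shared 0 or 1 member barcode. Summed erythroid genes ranged from 5810 to 22693 CPM in embryonic members and from 1173 to 10512 CPM in Tcf21-positive barcodes. The sums were higher in members in both libraries of E14.5 and E16.5 and in E12.5 replicate 1. By the least this held in E16.5 replicate 2 (10436 against 10303 CPM), and in E12.5 replicate 2 members were lower (5810 against 7086 CPM). They were not spread evenly: a cluster of 42 E14.5 members held 210281 CPM against 937 to 1418 CPM in the other E14.5 clusters, and a cluster of 131 E12.5 members held 43064 CPM against 1990 to 2285 CPM in the others. At E16.5, clusters of 74 and 79 held 41753 and 13978 CPM against 1247 to 1586 CPM in the others. Over the 6 libraries edgeR called 0 of 9 erythroid genes (0 also at an unadjusted p under 0.05). Within E14.5 it called 7 of 9 higher in members, against 1219 of all 11704 genes tested. The part of erythroid genes in other results was not tested.

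Whether the members carried a cushion and valve profile was read from genes outside the gate, by comparing sums of UMIs per library between members and Tcf21-positive barcodes with the library as a block. Of 11704 genes tested with edgeR's quasi-likelihood test at an adjusted p under 0.05, 1185 were higher in members (10.1%) and 1490 were lower (12.7%). The contrast asks how the populations differ once chosen on Sox9, Tcf21, Postn and Cthrc1, so genes that vary with these can follow from the choice. The gene lists below were also chosen with earlier results of these data known. Their counts and medians therefore describe the members and are no independent evidence of a cushion and valve profile.

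Cushion and valve transcription factors were higher in members. Of 24 tested, 16 were called higher and 0 lower, and the median log2 difference of the list was 0.60, against -0.02 over all genes tested. Twist1, a bHLH factor of mesenchymal proliferation in cushions, stood at 324, 382, 212, 225, 93.2 and 110 CPM in embryonic members and at 161, 198, 62.6, 79.0, 40.7 and 47.7 CPM in Tcf21-positive barcodes. It was higher in members in all 6 libraries, though the ranges of the populations overlap, since both were lower at later stages. The log2 difference was 1.13 (SE 0.09, adjusted p = 6.99e-06).

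Scx (scleraxis), a bHLH factor of tendon and valve precursors, stood at 65.4, 77.4, 234, 187, 81.7 and 95.5 CPM in members and at 37.1, 50.3, 39.7, 44.1, 8.34 and 9.86 CPM in Tcf21-positive barcodes. The lowest member library lay above the highest Tcf21-positive library (log2 difference 1.76, SE 0.30, adjusted p = 0.00134). Msx1, a homeobox factor of atrioventricular cushions, stood at 69.2, 65.2, 109, 82.7, 65.3 and 80.7 CPM in members and at 40.8, 33.4, 16.8, 22.3, 4.52 and 7.80 CPM in Tcf21-positive barcodes, again with no overlap (1.80, SE 0.32, adjusted p = 0.00164). Meox1, a homeobox factor of mesoderm, stood at 252, 252, 399, 396, 160 and 265 CPM against 98.7, 97.6, 125, 168, 75.2 and 77.5 CPM. Meox1 was higher in members by nearly the same amount at each stage (log2 differences of 1.27, 1.30 and 1.28 in order of stage).

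Lef1, a nuclear partner of beta-catenin, was higher by 1.87 on the log2 scale (SE 0.27, adjusted p = 0.00039), Prrx2 by 1.20 (SE 0.09, adjusted p = 4.58e-06) and Tbx20, a T-box factor of valve endocardium and mesenchyme, by 0.61 (SE 0.06, adjusted p = 3.62e-05). The 8 factors not called over the 6 libraries were Snai1, Snai2, Tbx2, Gata5, Gata6, Hand2, Meox2 and Klf4. By stage, however, Snai1, Meox2 and Hand2 were called higher and Tbx2 lower within E14.5, and Klf4 and Gata5 lower within E12.5. Snai1 and Snai2 act when endocardial cells become mesenchyme.

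Genes of the hyaluronan and proteoglycan matrix split. Of 20 tested, 10 were higher in members and 3 lower, with a median log2 difference of 0.47. Vcan (versican, the large proteoglycan of cardiac jelly) stood at 673, 688, 425, 429, 261 and 332 CPM in members and at 310, 311, 111, 147, 120 and 118 CPM in Tcf21-positive barcodes, and was higher in members in all 6 libraries (log2 difference 1.26, SE 0.09, adjusted p = 3.43e-06). Cd44, the hyaluronan receptor, stood at 32.5, 27.6, 34.9, 36.0, 23.4 and 34.0 CPM against 9.33, 9.39, 4.45, 6.31, 2.69 and 3.21 CPM, with no overlap (2.15, SE 0.20, adjusted p = 2.4e-05). Hapln1, the link protein that ties versican to hyaluronan, and Has2, the hyaluronan synthase of cushions, were higher by 1.53 (SE 0.29, adjusted p = 0.00243) and 1.10 (SE 0.17, adjusted p = 0.000573). The small leucine-rich proteoglycan Ogn was lower by a log2 difference of -2.40 (SE 0.31, adjusted p = 0.000169), and Adamts5, a versican-cleaving protease, and Aspn were also lower.

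Cartilage-like matrix genes were mostly higher in members. Of 14 tested, 9 were higher and 2, Matn2 and Col11a1, were lower, with a median log2 difference of 0.84, and the call of Matn2 was lost with the gate at 4000 UMIs (-0.916, adjusted p = 0.0701). Col9a1, a chain of the cartilage collagen IX, stood at 129, 126, 139, 123, 62.8 and 77.1 CPM in members and at 50.9, 53.1, 19.8, 26.3, 4.38 and 5.5 CPM in Tcf21-positive barcodes, with no overlap (2.06, SE 0.28, adjusted p = 0.000253). Col2a1, the main fibrillar collagen of cartilage, stood at 49.2, 46.8, 45.8, 37.3, 9.96 and 21.2 CPM in members against 20.9, 26.3, 9.23, 7.79, 1.27 and 0.229 CPM (1.55, SE 0.29, adjusted p = 0.0023). It was higher in members in every embryonic library, while the highest Tcf21-positive values exceeded the E16.5 member values. Col9a3 (1.92), Matn4 (1.79), Papss2, which makes the sulfate donor for proteoglycans (1.61), and Sox5, a partner of Sox9 in cartilage (0.98), moved the same way. Of 23 cartilage and tendon-like genes listed, 9 were not tested, Acan, Comp and Tnmd among them, because their counts were too low.

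**Figure D2:**
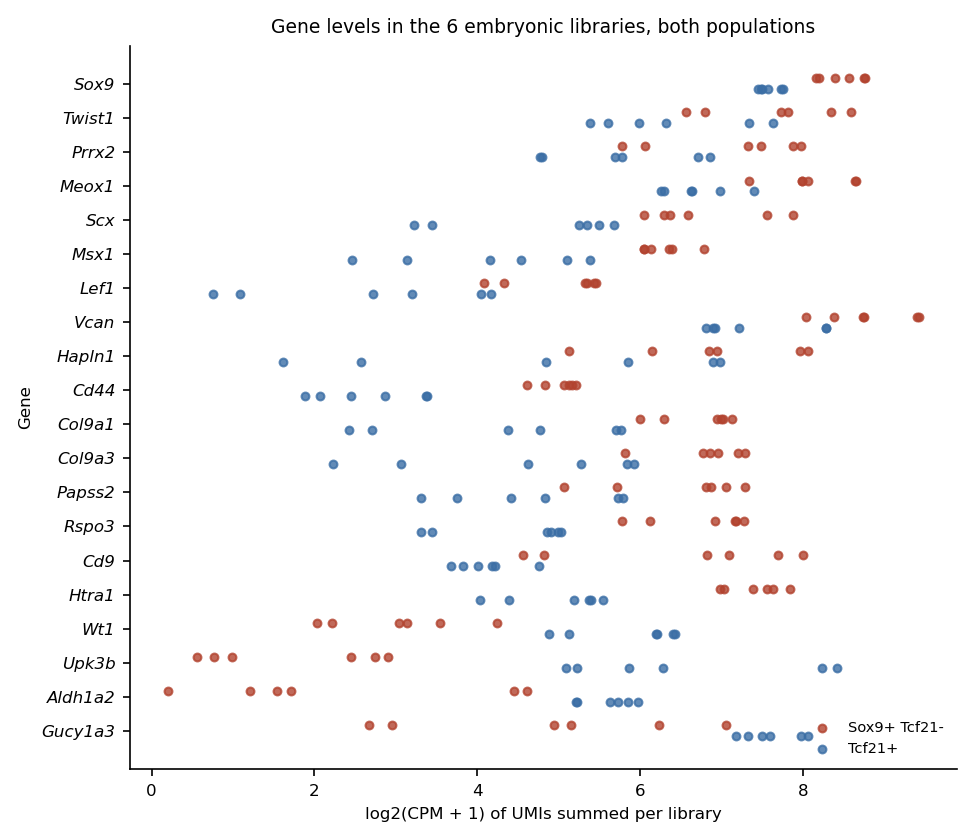
Levels of Sox9 and of 19 genes outside the gate, as log2(CPM + 1) of UMIs summed per library, in Sox9 members (red) and Tcf21-positive barcodes (blue), with 1 point for each of the 6 embryonic libraries. Scx, Msx1 and Col9a1 lie higher in members than in Tcf21-positive barcodes in all 6 embryonic libraries, and Wt1 and Upk3b lie lower.

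Collagens other than those of the gate leaned the other way. Of 18 tested, 5 were higher in members and 10 lower, with a median log2 difference of -0.47. Col14a1, a fibril-associated collagen, stood at 4.84, 5.16, 19.2, 14.4, 151 and 105 CPM in members and at 10.3, 7.96, 70.4, 65.7, 213 and 209 CPM in Tcf21-positive barcodes, and was lower in members in all 6 libraries (-1.28, SE 0.19, adjusted p = 0.000552). Col4a1 (-0.85) and Col4a2 of the basement membrane and Col6a1 and Col6a2 were also lower, while Col18a1, another basement membrane collagen, was higher (1.04, SE 0.20, adjusted p = 0.00262).

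Elastic fibre genes were higher in 10 and lower in 2 of 20 tested, with a median of 0.27. Fbln5, which links elastin to cells, stood at 202, 165, 238, 213, 184 and 192 CPM in members and at 65.3, 99.7, 57.5, 69.4, 15.8 and 25.9 CPM in Tcf21-positive barcodes, with no overlap (1.84, SE 0.27, adjusted p = 0.000403). At E12.5 it was uneven among members. A cluster of 78 held 1067 CPM, one of 41 held 817 CPM and one of 101 held 147 CPM, while the others held 8.96 to 69.8 CPM. Elastin itself, Eln, was higher by 0.96 (SE 0.15, adjusted p = 0.000723), a call that was lost with the gate applied to barcodes thinned to 4000 UMIs (0.689, adjusted p = 0.135) and against Tcf21-positive barcodes with Postn or Cthrc1 and without Sox9 (0.506, adjusted p = 0.364). That second comparison group is small, with 25, 27, 22, 28, 83 and 75 barcodes in the 6 embryonic libraries.

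Among 23 tested genes of the BMP and TGF-beta pathway, 8 were higher and 0 lower over the 6 libraries, with a median of 0.24. By stage, Gdf10, Tgfb3 and Id4 were called lower at E12.5, and Gdf10 and Bmpr1a within E14.5. The secreted ligands Bmp2 (1.11, SE 0.14, adjusted p = 0.000132) and Tgfb2 (0.70, SE 0.08, adjusted p = 8.91e-05), which drive cushion formation, were higher. So were the inhibitors Smad7 (0.59) and Bambi (0.47) and the TGF-beta-induced matrix protein Tgfbi. Tgfbi stood at 409, 401, 347, 289, 85.2 and 79.3 CPM in members and at 185, 199, 108, 122, 20.6 and 36.5 CPM in Tcf21-positive barcodes (1.22, SE 0.11, adjusted p = 1.55e-05), higher in members in all 6 libraries.

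Of 17 tested Wnt pathway genes, 10 were higher in members and 4 lower, with a median of 0.51. Rspo3, a secreted enhancer of Wnt signalling, stood at 68.7, 53.9, 144, 142, 120 and 154 CPM in members against 28.9, 30.7, 28.0, 31.5, 9.89 and 8.94 CPM, with no overlap (2.06, SE 0.33, adjusted p = 0.000771). Axin2, a widely used target of beta-catenin, stood at 11.7, 12, 15.2, 17.0, 13.9 and 23.4 CPM against 4.8, 5.86, 2.74, 3.71, 2.40 and 1.61 CPM, also without overlap (1.79, SE 0.27, adjusted p = 0.00054). The target Nkd1 (1.34) and the secreted Dkk3 (1.95) and Sfrp2 (1.04) were higher as well. The related enhancer Rspo1 ran the opposite way, with 0 to 5.98 CPM in members and 15.8 to 72.6 CPM in Tcf21-positive barcodes (-5.49, SE 0.43, adjusted p = 6.99e-06), and the ligands Wnt2 and Wnt4 were lower.

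Cell cycle genes were lower where called in the pooled comparison: 8 of 23 tested were lower and 0 higher over the 6 libraries, with a median of -0.14. At E12.5 alone 6 were called higher (Cdkn1a, Rrm2, Cdk1, Tyms, Pcna and Ccnd1) and 4 lower, with a median of 0.04, while E14.5 had 1 higher and 10 lower and E16.5 0 higher and 9 lower. The largest of the 8 cell cycle differences called over the 6 libraries was that of Cdkn1c, a cyclin-dependent kinase inhibitor. It stood at 294, 264, 192, 179, 330 and 291 CPM in members and at 922, 808, 461, 403, 558 and 625 CPM in Tcf21-positive barcodes, with no overlap (-1.39, SE 0.10, adjusted p = 2.95e-06). Mki67 (-0.31, SE 0.07, adjusted p = 0.00595) and Top2a (-0.27, SE 0.06, adjusted p = 0.01), marks of dividing cells, were lower by less.

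Epicardial markers were lower in embryonic members. All 12 tested were lower over the 6 libraries, with a median log2 difference of -3.51. Their summed level was 57.5 to 117 CPM in embryonic members and 267 to 955 CPM in Tcf21-positive barcodes, highest at E12.5. Upk3b, an epicardial surface gene, stood at 5.71, 6.48, 0.475, 0.980, 4.48 and 0.708 CPM in members and at 341, 299, 57.1, 76.4, 36.3 and 33.0 CPM in Tcf21-positive barcodes (-5.70, SE 0.22, adjusted p = 3.79e-08). Wt1, the Wilms tumour factor of epicardium, stood at 3.66, 3.08, 7.83, 7.19, 17.9 and 10.6 CPM against 84.9, 83.3, 72.8, 72.0, 28.4 and 33.9 CPM (-3.46, SE 0.40, adjusted p = 7.91e-05). The populations do not overlap for either gene in the embryonic libraries, and the Tcf21-positive group carries epicardial transcripts at each stage, whose part in the other differences was not tested. In the P3 matrix the list summed to 229 CPM in members and 346 CPM in Tcf21-positive barcodes, while Upk3b stood at 47.6 CPM against 22.5 CPM, with no UMI in well 1, and Wt1 at 10.2 CPM against 8.69 CPM.

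Markers of other cell types differed less. Of 15 tested fibroblast markers 3 were higher and 4 lower, with a median of -0.04. Mgp, an inhibitor of mineralisation, stood at 662, 576, 2238, 1985, 3253 and 2708 CPM in members and at 459, 407, 477, 668, 630 and 643 CPM in Tcf21-positive barcodes (1.42, SE 0.23, adjusted p = 0.000775). It was higher in members in all 6 libraries, by the least at E12.5. Lsp1 was lower (-1.96, SE 0.20, adjusted p = 3.33e-05).

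Smooth muscle markers summed to 960 to 1797 CPM in embryonic members and 493 to 925 CPM in Tcf21-positive barcodes, and 3 of 7 tested were higher, Tagln (1.25), Cnn1 (1.35) and Acta2 (0.51), and 2 lower, Itga8 and Pln. Among 7 tested pericyte markers, Rgs5 (1.09) and Pdgfrb (0.55) were called higher and none lower over the 6 libraries. Within E14.5, Abcc9, Ndufa4l2, Kcnj8 and Notch3 were called lower and Rgs5 higher (median -0.60). At E12.5, Rgs5 and Pdgfrb were called higher and Kcnj8 lower (median 0.18). At E16.5, Kcnj8, Pdgfrb and Rgs5 were called higher and Ndufa4l2 lower (median 0.74). Both pooled calls were lost with the gate at 4000 UMIs, at 0.536 (adjusted p = 0.287) and 0.401 (adjusted p = 0.116), and against Tcf21-positive barcodes with Postn or Cthrc1 and without Sox9 the difference of Rgs5 was -0.304. Endothelial markers were higher in 2 and lower in 2 of 9 tested, cardiomyocyte markers higher in 0 and lower in 5 of 11, and neural crest and Schwann cell markers higher in 1 and lower in 2 of 4. Macrophage markers were higher in 0 and lower in 1 of 3. Airway and lung mesenchyme genes summed to at most 1.42 CPM in embryonic members and to 3.75 CPM in P3 members, and none of the 7 could be tested.

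Among genes of at least 5 in mean log2 CPM changed the same way in every library, those with the greatest difference upward were Cd9, Penk, Htra1, Rspo3, Col9a1, Dkk3, Col9a3, Clu, Fbln5 and Msx1. Penk, which encodes proenkephalin, stood at 165, 134, 36.1, 42.2, 22.9 and 18.4 CPM in members against 28.7, 29.3, 1.71, 8.90, 5.37 and 2.75 CPM (2.34, SE 0.15, adjusted p = 2.02e-06). At E12.5 a cluster of 78 members held Penk at 1237 CPM, and the other E12.5 members held 41.3 CPM. Htra1, a secreted serine protease, stood at 130, 125, 227, 196, 166 and 187 CPM against 40.5, 41.1, 35.6, 45.6, 15.4 and 20 CPM, without overlap (2.24, SE 0.21, adjusted p = 2.18e-05). Downward, Upk3b and Wt1 were joined by Apela, Smim1, Gucy1a3, Slc38a5, Spon2, Ogn, Sulf1 and Kcne1l. Gucy1a3, a subunit of the nitric oxide receptor, stood at 6.74, 5.38, 34.6, 29.7, 132 and 74.3 CPM in members and at 159, 144, 266, 250, 192 and 180 CPM in Tcf21-positive barcodes (-2.84, SE 0.45, adjusted p = 0.000765).

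The difference between the populations was also taken at each stage. E12.5 gave 2761 genes that differed in either direction (23.6% of those tested), E14.5 gave 2610 (22.3%) and E16.5 gave 1525 (13%). Leaving out either library of a stage gave 1252 or 1236 genes for E12.5, 1232 or 1732 for E14.5 and 900 or 868 for E16.5. Against Tcf21-positive barcodes with Postn or Cthrc1 and without Sox9 the counts were 190, 783 and 679 in order of stage, with 25 and 27 barcodes in that group at E12.5 in place of 373 and 468. DESeq2 called 778, 1043 and 666, and the gate at 4000 UMIs gave 968, 1001 and 203. The order of the stages was therefore not the same in every setting, and the cause was not tested. The change of the difference from E12.5 to E16.5 was tested as an interaction: 546 genes moved upward in members relative to Tcf21-positive barcodes (4.67%) and 310 downward (2.65%). Without a single library, E12.5 replicate 1 or 2 or E16.5 replicate 1, 480, 436 and 527 genes were called in all. Cartilage-like genes moved upward in 8 of 14 and downward in 0 (median 1.10, against -0.01 over all genes), Wnt pathway genes in 9 and 2 of 17 (median 1.13), and transcription factors in 6 and 1 of 24. Cell cycle genes leaned downward, with 2 upward and 9 downward of 23 (median -0.29), and elastic fibre genes were divided, with 7 and 6 of 20.

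Scx was higher in members by 0.62, 2.18 and 3.15 on the log2 scale in order of stage, a change of 2.53 (adjusted p = 1.6e-10). The members held 65.4 to 95.5 CPM over both end stages, and edgeR called Scx higher in E16.5 than in E12.5 members. With the gate on thinned barcodes that change within members was -0.231 and was not called. The Tcf21-positive barcodes went from 37.1 and 50.3 CPM at E12.5 to 8.34 and 9.86 CPM at E16.5. Rspo3 differed by 0.93, 2.11 and 3.67 (change 2.74, adjusted p = 6.99e-11), Msx1 by 0.78, 2.15 and 3.48 (2.70, adjusted p = 1.85e-09) and Col9a1 by 1.20, 2.36 and 3.69 (2.49, adjusted p = 2.36e-09). For these genes the Tcf21-positive level was lower in both E16.5 libraries than in both E12.5 libraries.

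Some of these calls were lost under the gate at 4000 UMIs, where thinning can turn Tcf21-positive barcodes into members, and the cause was not tested. With the gate applied at 4000 UMIs, E12.5 keeps only 34 and 71 members and 18 and 51 Tcf21-positive barcodes, and the change of Msx1 was 0.83 (adjusted p = 0.663), that of Lef1 1.15 (0.614) and that of Col9a1 0.16 (0.911), so these calls were lost. The changes of Scx (1.96), Rspo3 (2.14), Hapln1 (2.09) and Col9a3 (2.92) were still called. Genes that differed between the populations over all stages fell from 2675 to 806 there, and Scx (2.34), Col9a1 (2.57), Twist1 (1.33) and Wt1 (-2.81) were among those still called.

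**Figure D3:**
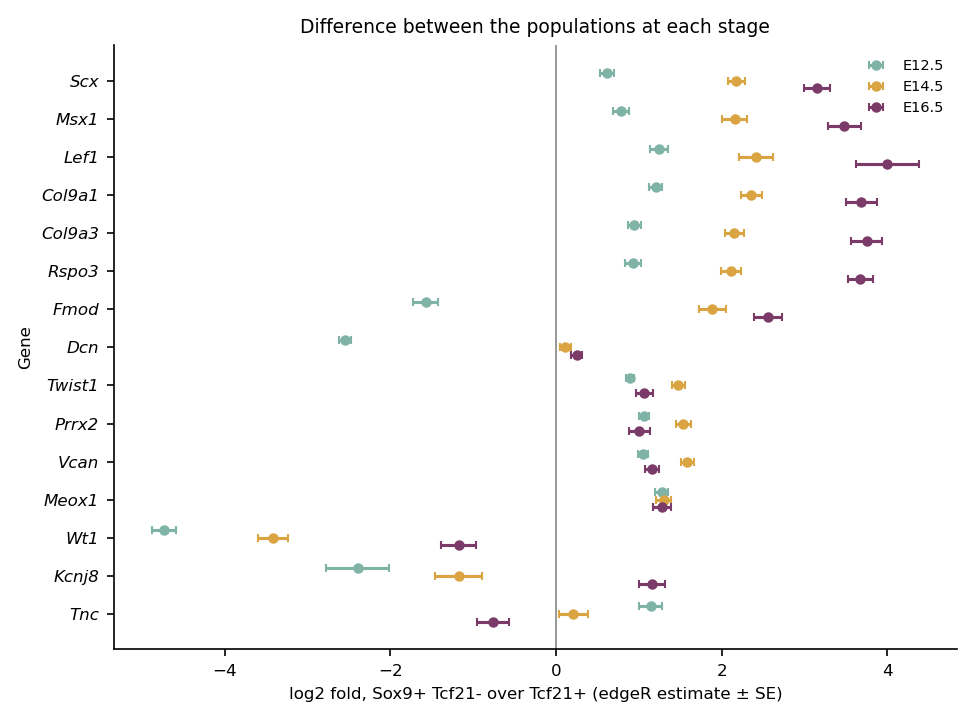
Log2 difference between Sox9 members and Tcf21-positive barcodes at each embryonic stage for 15 genes outside the gate, as edgeR estimates with standard errors. Scx rises from 0.62 to 3.15, Meox1 stays between 1.27 and 1.30, Wt1 goes from -4.73 to -1.17, and Dcn and Fmod cross 0.

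Of all 11704 genes tested, 856 had the interaction called, and of the 256 listed or named genes among them 104 did. For 11 of these 104 the difference was called in opposite directions at E12.5 and E16.5. Genes outside the lists and names were not counted in this way. Fmod (fibromodulin), a small leucine-rich proteoglycan that shapes collagen fibrils, stood at 11.7, 8.35, 76.4, 68.6, 75.7 and 89.9 CPM in members and at 25.5, 29.4, 16.1, 19.3, 13.4 and 11.2 CPM in Tcf21-positive barcodes. Members were the lower population at E12.5 and the higher in the 4 later libraries, without overlap within any stage (log2 differences -1.58, 1.89 and 2.56, change 4.14, adjusted p = 4.24e-13). Dcn (decorin), of the same family, stood at 63.7, 66.3, 987, 978, 2642 and 2826 CPM in members and at 403, 322, 885, 750, 2023 and 2166 CPM in Tcf21-positive barcodes (-2.55, 0.11 and 0.25, change 2.80, adjusted p = 1.28e-17). Both changes were also called with the gate at 4000 UMIs, at 5.03 for Fmod and 3.69 for Dcn.

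The stages were then compared within members alone, on 6 sums and 11015 genes. From E12.5 to E16.5, 1721 genes rose (15.6%) and 1461 fell (13.3%). From E12.5 to E14.5, 1334 rose (12.1%) and 1264 fell (11.5%), and from E14.5 to E16.5, 851 rose (7.73%) and 494 fell (4.48%). Without E12.5 replicate 1, E14.5 replicate 1 or E14.5 replicate 2, 1599, 1201 and 1511 genes were called between E12.5 and E14.5, and without E14.5 replicate 1, E14.5 replicate 2 or E16.5 replicate 1, 769, 792 and 681 between E14.5 and E16.5. Collagens outside the gate rose almost throughout, with 15 of 16 tested higher at E16.5 and 1, Col18a1, lower (median log2 change 2.60, against 0.02 over all genes). Col14a1 went from 4.84 and 5.16 CPM through 19.2 and 14.4 to 151 and 105 (log2 change 4.8, SE 0.20, adjusted p = 7.56e-15). Col4a1 rose by 2.77 (SE 0.12, adjusted p = 1.1e-14), Col6a2 by 3.74 and Col15a1 by 6.34 from under 1 CPM.

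The hyaluronan and proteoglycan list was divided by stage. Of 20 tested, 12 rose, the proteases Adamts5 and Adamts19 and the membrane proteoglycans Cspg4, Gpc6 and Sdc1 as well as small proteoglycans, among them Dcn (5.5, SE 0.11, adjusted p = 5.45e-21), Fmod (3.16, SE 0.17, adjusted p = 5.36e-13), Bgn (1.52) and Lum (1.05, but 0.363 with an adjusted p of 0.229 when gated at 4000 UMIs), and 5 fell, among them Vcan (-1.11, SE 0.10, adjusted p = 4.59e-09), Has2 and Hapln1. Hapln1 went from 266 and 249 CPM through 114 and 122 CPM to 33.9 and 70.1 CPM, with no overlap between stages (-2.27, SE 0.16, adjusted p = 7.75e-11). Elastic fibre genes rose in 13 and fell in 3 of 20 (median 0.72), with Eln at 120 and 158 CPM, then 383 and 467 CPM, then 242 and 328 CPM (1.12 from E12.5 to E16.5), thus highest at E14.5.

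Transcription factors of the cushion list fell more often than they rose between E12.5 and E16.5, 9 against 6 of 24 (median -0.19). Twist1 went from 324 and 382 to 93.2 and 110 CPM (-1.70, SE 0.11, adjusted p = 2.82e-11), and Prrx2 fell by 1.93 (SE 0.12, adjusted p = 6.95e-12). Gata5, a zinc finger factor of endocardial cells, went from 17.3 and 21.1 to 1.49 and 2.12 CPM, the latter being 3 UMIs in each library. Nfatc1, needed in endocardium for valve growth, rose from 12.6 and 14.1 to 30.9 and 41.0 CPM (1.5, SE 0.19, adjusted p = 1.09e-06). Scx peaked at E14.5, rising by 1.5 from E12.5 (adjusted p = 6.77e-10) and falling by 1.10 to E16.5 (adjusted p = 1.83e-06).

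Signalling genes of the members also changed with stage. BMP and TGF-beta pathway genes fell in 10 and rose in 7 of 22 (median -0.24). The ligands Bmp2 (-1.77) and Bmp4 (-1.58) and the target Id2 (-1.61) fell, and the ligand Tgfb3 rose (1.65, but 0.741 with an adjusted p of 0.133 when gated at 4000 UMIs). Tgfbi went from 409 and 401 through 347 and 289 to 85.2 and 79.3 CPM, in separate ranges (-2.19, SE 0.11, adjusted p = 5.05e-13). Wnt pathway genes rose in 5 and fell in 3 of 15, with Rspo3 (1.26) and Dkk3 (1.41) among the first and the receptor Fzd1 (-1.65) among the second. Cartilage-like genes fell in 5 and rose in 3 of 13, with Col2a1 (-1.60) and Papss2 (-1.37) lower and Matn4 (1.16) higher. Cell cycle genes fell in 11 and rose in 3 of 23 (median -0.44). Those that rose were Mki67, Ccnd2 and Cdkn1c, those that fell included Cdkn1a, and Top2a was not called.

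Fibroblast and pericyte markers rose in members over the same interval. Fibroblast markers rose in 10 and fell in 1 of 14 (median 2.53), with Dpt at 8.06, 17.7, 135, 148, 460 and 478 CPM (5.23). Dpt was also called higher in members than in Tcf21-positive barcodes over the 6 libraries, though not within E16.5. Among E16.5 members it stood at 64.0 CPM in a cluster of 17 and at 407 to 638 CPM in the other clusters. Pericyte markers rose in 7 of 7 (median 3.19), but with the gate at 4000 UMIs the calls of Rgs5 (0.483, adjusted p = 0.308) and Pdgfrb (0.54, adjusted p = 0.0722) were lost. Kcnj8, a potassium channel subunit of pericytes, stood at 0.586, 1.32, 7.12, 8.5, 80.7 and 56.6 CPM (6.2, SE 0.28, adjusted p = 3.6e-14), and the sum of the pericyte list went from 150 and 153 CPM at E12.5 to 627 and 487 CPM at E16.5. Other lists were divided. Smooth muscle markers rose in 3 and fell in 2 of 7, with Cnn1 and Tagln falling and the summed level going from 1797 and 1555 to 976 and 960 CPM. Cardiomyocyte markers rose in 3 and fell in 4 of 11, epicardial markers in 3 and 3 of 8, and endothelial markers in 2 and 2 of 9. Dlk1, a membrane ligand of the Notch family, went from 26.7 and 34.5 to 777 and 763 CPM. In summed barcodes a change in which cells pass the gate and a change within cells cannot be told apart, so the make-up of the members was examined.

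Members were clustered within each stage, which gave 9, 8, 7 and 7 clusters from E12.5 to P3, described by their leading genes and not tested. At E12.5 no cluster had both Scx and Col9a1 below 50 CPM, a limit set after the clusters had been seen. The 151 barcodes of the largest were led by Dpt, Matn4 and Lmcd1 and held Hapln1 at 442 CPM, while 78 barcodes led by Penk and Sema3c held Penk at 1237 CPM, Acta2 at 1947 CPM and Hapln1 at 5.68 CPM. A further 41 were led by Eln, Cxcl12, Rgs5 and the second heart field factor Isl1. These 41 held Eln at 1284 CPM, Acta2 at 1803 CPM and Rgs5 at 408 CPM, but Hapln1 at 3.97 CPM and Twist1 at 37.1 CPM, and their summed cushion transcription factors, 1146 CPM, were the lowest of the E12.5 clusters. Of the others, 131 barcodes were led by globin genes, and 107 and 78 by histone and mitotic genes. At E14.5, 110 barcodes were led by Scrg1, Col2a1 and Matn4, with Sox9 at 762 CPM, and another 110 by Acta2, Sfrp2 and Myl9.

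Part of the members from E14.5 on were low in Scx and Col9a1. Clusters with both Scx and Col9a1 below 50 CPM held 80 of 596 E14.5 members (13.4%), 109 of 291 E16.5 members (37.5%, with 40.1% and 34.5% in the 2 libraries) and 72 of 171 P3 members (42.1%). At E14.5 they were led by Spon2, Gucy1a3 and Lsp1 with Wt1 in the first 10 genes. At E16.5 a cluster of 74 was led by Dlk1, at 2428 CPM, and Aldh1a2, an enzyme of retinoic acid synthesis, and 4 globin genes were among its 10 leading genes. A cluster of 18 was led by Dpep1 and Osr1, and another of 17 was led by Higd1b, Apold1 and Kcnj8, of which Higd1b and Kcnj8 are pericyte genes, with Kcnj8 at 738 CPM. The limit separates less at E12.5, where the Tcf21-positive sums also passed it (Col9a1 at 50.9 and 53.1 CPM, Scx at 50.3 CPM in replicate 2), than at E16.5, where they held 4.38 to 9.86 CPM of either gene. The name cushion and valve mesenchyme thus covers only part of the gated barcodes of E14.5, E16.5 and P3, and the limit does not settle it for E12.5. There, clusters of 101, 78 and 41 barcodes summed smooth muscle markers to 3898, 5580 and 3266 CPM. The other E12.5 clusters held 688 to 867 CPM. Twist1 stood at 208, 61.0 and 37.1 CPM in these 3 clusters and at 357 to 521 CPM in the others. Which cell type they belong to was not tested.

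**Figure D4:**
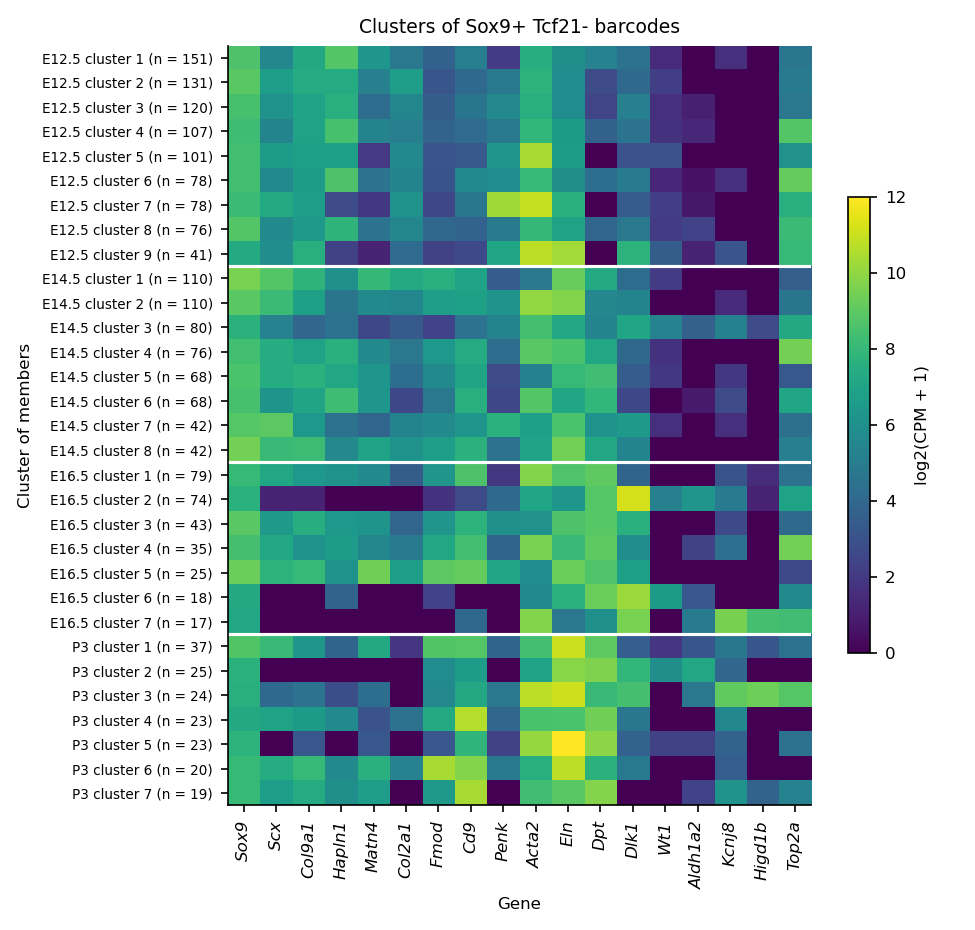
Levels of 18 genes (columns) in each cluster of Sox9 members (lines, with the number of barcodes), coloured by log2(CPM + 1) and separated by stage. Every E12.5 cluster has Scx or Col9a1 at 50 CPM or more, while the dark cells of Scx and Col9a1 from E14.5 on are clusters that hold 13.4% of E14.5, 37.5% of E16.5 and 42.1% of P3 members.

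Leaving those clusters out changed the levels of some genes, which is given as a description with no test because the clusters were chosen on the same counts. In the remaining members Scx stood at 65.4, 77.4, 275, 211, 145 and 140 CPM in the embryonic libraries and Col9a1 at 129, 126, 166, 139, 111 and 114 CPM. Kcnj8 stood at 14.2 and 4.17 CPM at E16.5 in place of 80.7 and 56.6, Higd1b at 1.77 and 0, Dlk1 at 51.4 and 78.1 in place of 777 and 763, and Wt1 had no UMI in either E16.5 library, where 3 UMIs stand for 2.66 and 3.13 CPM. Most of the E16.5 level of these 4 genes therefore lay in the clusters low in Scx and Col9a1.

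Other stage changes were still present without them, though the limit left out 0 of 883 E12.5 members. A reduced E16.5 set is thus compared with the full E12.5 set. Dcn stood at 63.7, 66.3, 1081, 1036, 3223 and 3274 CPM in the remaining members and Mgp at 5375 and 3847 CPM at E16.5, above the 662 and 576 CPM of E12.5. Fmod stood at 132 CPM in each E16.5 library, against 11.7 and 8.35 CPM at E12.5, and Tgfbi at 140 and 111 CPM against 409 and 401 CPM. Col14a1 stood at 52.3 and 36.5 CPM in the E16.5 libraries, in place of 151 and 105 CPM.

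**Figure D5:**
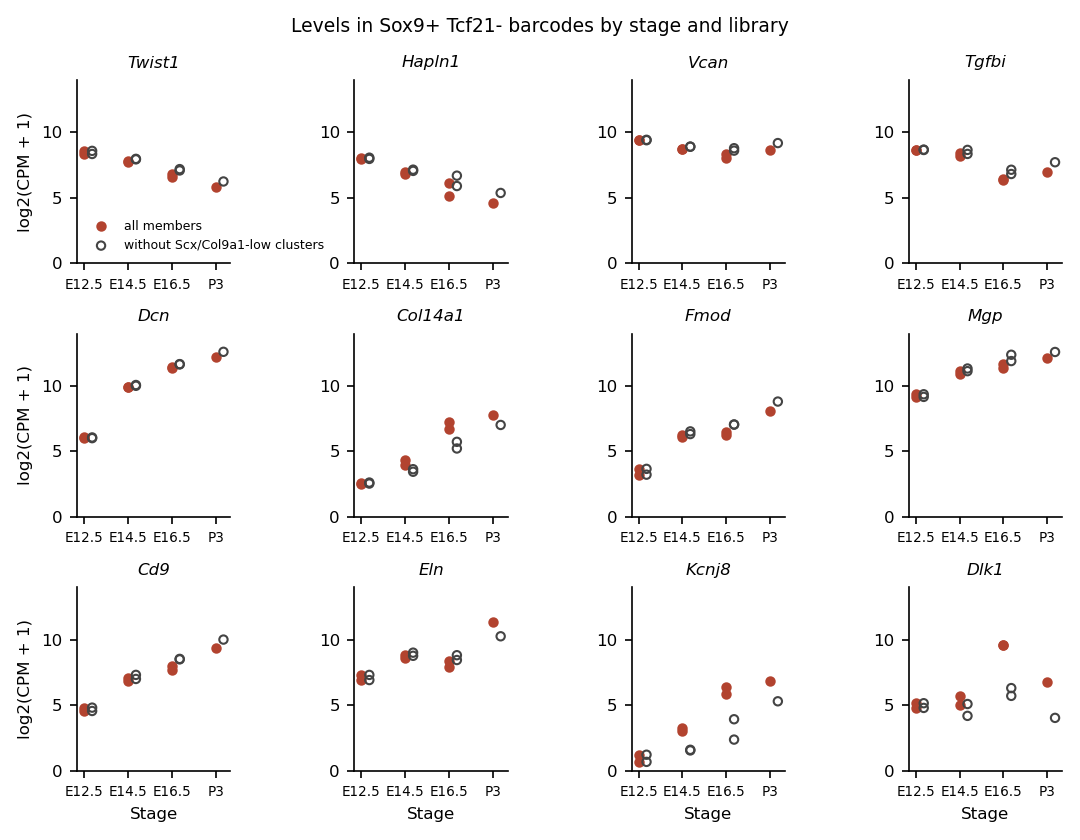
Levels of 12 genes as log2(CPM + 1) by stage, with 1 filled point per matrix for all Sox9 members and 1 open point for members outside the clusters low in Scx and Col9a1. Dcn is higher and Hapln1 lower at E16.5 than at E12.5 in both sets, while for Dlk1 at E16.5 the filled points (777 and 763 CPM) lie far above the open ones (51.4 and 78.1 CPM). At E12.5 the sets are the same barcodes.

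P3 gives values of a single matrix. The 171 members held 1868325 UMIs, so that 3 UMIs stand for 1.61 CPM. Eln stood at 242 and 328 CPM at E16.5 and at 2625 CPM at P3, with 1333 CPM in well 1 and 3487 CPM in well 2, and at P3 it was 1231 CPM in members outside the clusters low in Scx and Col9a1 and 4392 CPM inside them. Among the latter, a cluster of 23 barcodes led by globin genes held Eln at 11341 CPM, and the other two held 932 and 2183 CPM. Tcf21-positive barcodes went the same way, from 158 and 159 CPM at E16.5 to 1968 CPM at P3. Wif1, a secreted Wnt inhibitor, stood at 6.97 and 17.7 CPM at E16.5 and at 57.3 CPM at P3 (64.2 and 52.6 by well), where Tcf21-positive barcodes held 1.53 CPM. S100b, a calcium-binding protein, stood at 4.48 and 8.49 CPM at E16.5 and at 38.5 CPM at P3, against 3.86 CPM in Tcf21-positive barcodes. Each of these was higher than in both E16.5 libraries. The gene with the greatest P3 over E16.5 ratio among the 193 listed genes compared was the epicardial Upk3b (log2 ratio 4.20), at 47.6 CPM in P3 members, 0 in well 1 and 79.4 CPM in well 2, against 22.5 CPM in Tcf21-positive barcodes. That ratio rests on 89 UMIs of Upk3b in P3 members and 10 in E16.5 members. Other genes among the 10 with the greatest ratios are markers of further cell types, with the fibroblast gene Pi16 at 26.8 CPM, the cardiomyocyte genes Myh6 and Nppa at 91.5 and 183 CPM, and the pericyte gene Rgs5 at 423 CPM in P3 members. Tcf21-positive barcodes of P3 held 20.9 CPM of Pi16, 76.3 CPM of Myh6, 196 CPM of Nppa and 296 CPM of Rgs5, and these 4 genes were higher there too than at E16.5 (log2 ratios 6.12, 3.68, 2.13 and 2.95).

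Genes described above lay on either side of their E16.5 level at P3. Scx stood at 102 CPM, Col9a1 at 79.2 CPM and Cd9 at 645 CPM, against 6.06, 1.96 and 109 CPM in Tcf21-positive barcodes of P3. Twist1 (56.7 CPM) and Hapln1 (23.6 CPM) stood below both E16.5 libraries, and Fmod (268 CPM) above both. Cdkn1c stood at 116 CPM against 330 and 291 CPM at E16.5. The 2 wells differ in their clusters: 37 barcodes led by Neat1 and Nfatc2, with Scx at 268 CPM, all came from well 2, and 23 led by S100a4 and Cytl1 all came from well 1. A difference between P3 and E16.5 cannot be told apart from one between libraries.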

How the data were processed

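Raw UMI counts for each gene in each barcode were deposited by the authors as whole numbers that were not normalised, for hearts of wild-type mice digested to single cells. The submitters' processing notes name Cell Ranger 2.1.1, Seurat 3.1.1 and mm10, while the file headers name version 3.1.0 for embryonic matrices and 3.0.0 for P3. The labels name version 2 of the droplet chemistry, and the study's methods version 3. Matrices of E8.5 and E10.5 embryos were not used here.

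Barcodes were gated on raw counts, and CPM were computed over all UMIs. The members and gene lists were chosen with earlier results of these data known. UMIs were summed per library and population and tested with edgeR 4.0.16 (quasi-likelihood F test, TMM, filterByExpr, Benjamini-Hochberg over all genes tested, threshold 0.05), with the 10 gate genes left out of the test. Contrasts between populations had the library as a block. All 3 embryonic stages shared 1 estimate of the spread. Of 18 gene lists with 286 genes, each is described by counts and medians. Genes named outside the lists are the 10 greatest in each direction among genes called, at a mean log2 CPM of at least 5, with the same direction in every library. P3 genes needed at least 30 UMIs in P3 members or in E16.5 members.

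Tested on simulated data, the population contrast recovered 44.4% of 1.5-fold, 86.6% of 2-fold and 100% of 4-fold changes over 11429 genes, and called 3 of 11233 unchanged genes. The E16.5 against E12.5 contrast recovered 7.94%, 33.3% and 84.4% over 10811 genes. The simulation changed 63 to 67 genes at each fold, gave all genes the same spread and had no library effect. That spread was wider than the common spread of either fit. These rates therefore do not describe the tests on the real counts. Totals of the embryonic libraries ran from 67141166 to 136646866 UMIs over 737280 listed barcodes each. The P3 matrix held 158627277 UMIs over 10964 listed barcodes, so it listed far fewer barcodes before the UMI and gene limits. Doublets were ranked with Scrublet in scanpy 1.11.5, marking the number expected from the barcodes (0.8% per 1000), and were kept. No correction for free RNA was made. Clusters came from Louvain clustering (python-igraph 0.11.9, resolution 0.8) of 2000 variable genes and 20 components. Alternatives were DESeq2 1.42.0, RLE size factors, no filter, each library left out, other gates, the study's mitochondrial ceilings, doublets left out, a comparison group without Sox9 and the replicate number as a block.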

Additional observations from a re-analysis of the deposited data

Results flagged for a closer look

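The 11 genes below differed between Sox9 members and Tcf21-positive barcodes in opposite directions at E12.5 and E16.5, with the change between the stages called by edgeR's interaction test. They come from 256 listed or named genes in that test, of which 104 had the change called. Fmod changed by 4.14 on the log2 scale, from -1.58 to 2.56, Kcnj8 by 3.55, from -2.40 to 1.15, and Dcn by 2.8, from -2.55 to 0.25. Most of the Kcnj8 level at E16.5 lay in a cluster of 17 barcodes with 738 CPM, while the other E16.5 members held 14.6 CPM. Whether its direction at E16.5 holds without that cluster was not tested. Tgfb3 changed by 1.3 and Cdh11, a cadherin of mesenchyme, by 0.822, both upward in members. Tnc (tenascin C) changed by -1.9, from 1.14 to -0.76, with 37.2, 44.6, 62.2, 38.9, 20.9 and 48.8 CPM in members and 16.8, 18.2, 37.6, 41.9, 49.2 and 51.1 CPM in Tcf21-positive barcodes. Gpc6 changed by -1.02, Ccnd1 by -0.79, Tyms by -0.763, Loxl2 by -0.562 and Emilin1 by -0.518. With the gate at 4000 UMIs, the calls of Tgfb3 (0.309), Cdh11 (0.832), Gpc6 (-0.966), Tyms (-1.09), Loxl2 (-0.669) and Emilin1 (-0.66) were lost, each with the same direction, and those of Fmod (5.03), Dcn (3.69), Kcnj8 (7.54), Tnc (-2.73) and Ccnd1 (-0.875) were kept. Against a comparison group with no Sox9, which held 25, 27, 22, 28, 83 and 75 barcodes in library order, all 11 changes kept their direction and 3 kept the call, Fmod (4.54), Dcn (1.84) and Tnc (-1.62). There the call was lost for Kcnj8 (2.37, adjusted p = 0.308), Tgfb3 (1.13), Cdh11 (0.831), Tyms (-0.906), Emilin1 (-0.496), Ccnd1 (-0.465), Gpc6 (-0.314) and Loxl2 (-0.283), where the adjusted p ran from 0.197 for Tyms to 0.852 for Gpc6.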

How the results depend on the processing

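Of the alternative values computed for named genes, 2509 kept direction and call, 63 kept direction but lost the call and 2 reversed, and the causes were not tested. Leading genes were named because they were called with the same direction in every library, so their agreement was partly fixed in advance. The gate at 4000 UMIs accounted for 25 lost calls and 1 reversal, and the group without Sox9 for 15 lost calls and 1 reversal. The reversals were Rgs5 between the populations against a comparison group without Sox9 (-0.304) and Scx from E12.5 to E16.5 with the gate at 4000 UMIs (-0.231). Genes that differed between the populations numbered 2675, 1765 with DESeq2, 806 with the gate at 4000 UMIs and 904 against the group without Sox9, where 9346 genes were tested, and 2097 to 2627 without each library in turn. E14.5 against E12.5 gave 2598 genes, 1196 with DESeq2, 503 with the gate at 4000 UMIs and 1201 to 2853 without each library. E16.5 against E14.5 gave 1345, 718 with DESeq2 and 681 to 1278 without each library, and E16.5 against E12.5 gave 3182, 1988 with DESeq2, 1512 with the gate at 4000 UMIs and 2167 to 3026 without each library. The interaction gave 856, 232 with DESeq2, 311 with the gate at 4000 UMIs, 94 against the group without Sox9 and 436 to 974 without each library, and with no filter on low counts its upward share was 49.2% in place of 63.8%. With Sox9 of at least 2 UMIs the member shares in library order were 34.3%, 34.3%, 39.3%, 32.5%, 15.1%, 13.8% and 5.07%. After thinning to 4000 UMIs they were 23.9%, 26.0%, 32.9%, 29.4%, 25%, 23.9% and 13.1%, and with at least 20 collagen UMIs 34.6%, 37.3%, 41.7%, 35.3%, 19.3%, 21.9% and 9.95%.

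Whether replicate numbers in the labels pair libraries of different stages was not settled. The difference of replicates 1 and 2 correlated between stages at 0.00759 to 0.041 over 11001 genes. Counting noise of genes with few UMIs lowers such a correlation, so it cannot exclude a pairing. With the replicate block, 2753, 1426 and 3271 genes were called for E14.5 against E12.5, E16.5 against E14.5 and E16.5 against E12.5, and the population contrast without the library block called 2923. E16.5 members held 2007198 and 1413110 UMIs, so 3 UMIs stand for 1.49 and 2.12 CPM there and lower levels cannot be told from 0. The stage comparisons share 1 estimate of the spread over the 6 member libraries, 2 a stage.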
